A study of Mus musculus with 11 samples.

Results

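The Klk1 kallikrein cluster of the mouse is a run of closely related genes for secreted trypsin-like serine proteases, and its RNA was measured here in sorted pituitary cells. The 10 members described are Klk1 itself and 9 of its Klk1b copies, Klk1b1, Klk1b3, Klk1b4, Klk1b5, Klk1b8, Klk1b22, Klk1b24, Klk1b26 and Klk1b27. They are 10 of 37 rows named Klk in a table of 56941 genes, and all 10 were found by symbol. They were chosen by their counts in these same libraries, which earlier results showed to be lower in the APC-mutant genotype, so their levels by genotype are given as a description, with no test.

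The study compared RNA from fluorescence-sorted pituitary cells labelled with an APC-mutant genotype (5 libraries) and a wildtype genotype (6 libraries). APC is a scaffold protein of the complex that marks beta-catenin for destruction, and the series' design text calls the wildtype cells pituitary stem cells and seeks the genes downstream of oncogenic APC in pituitary tumours. The labels give neither the exact APC allele, nor a Cre driver, strain, age or sorting gate, nor whether animals were pooled, nor what the word Lef1 in the mutant titles stands for. Of the wildtype libraries, numbers 1 to 4 carry a library name starting with ROSAJC and numbers 5 and 6 one starting with ROSAE, while all mutant names start with JS, so genotype and name prefix cannot be told apart.

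Klk1 encodes tissue kallikrein, which cuts kininogen to release kinins, peptides that widen vessels and act through bradykinin receptors. The Klk1b copies arose by duplication in rodents, keep the same fold, and differ in what they cut: among them are subunits of the submandibular nerve growth factor complex, enzymes tied to the epidermal growth factor precursor, and enzymes that act on prorenin. They are best known from the mouse submandibular gland, and in the rat a glandular kallikrein that can process prolactin has been described in the anterior pituitary.

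The members lie on the plus strand of chromosome 7 within 279.0 kb, chr7:43600088-43879042 on GRCm39, from Klk1b8 at the low end to Klk1 at chr7:43874784-43879042. Each has 5 exon blocks, and none shares an exonic base with a gene of another name. The same stretch holds 13 other Klk rows, which are 4 genes (Klk1b9, Klk1b11, Klk1b16 and Klk1b21) and 9 pseudogenes. Coding identity between members ranged from 81.35% to 95.15% over 45 pairs, with a median of 85.7%. The closest pair was Klk1 and Klk1b5, at 95.15%, and Klk1b24 and Klk1b27 were 93.54% identical.

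The stretch of coding sequence that begins at the codons for the active-site serine motif is shown for the 7 members with a count in every wildtype library and for Klk1b16, because a read must fall on such differences to be given to the right copy. It is 60 bases long within 1 exon, read 5′ to 3′ on the plus strand of GRCm38 from GENCODE M21 transcripts, and capitals mark bases that differ from Klk1b26.
Klk1b26, chr7:44016765-44016824: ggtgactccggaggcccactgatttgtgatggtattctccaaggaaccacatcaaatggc
Klk1b8, chr7:43954740-43954799: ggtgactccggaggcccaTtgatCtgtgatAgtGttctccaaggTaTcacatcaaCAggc
Klk1b16, chr7:44141406-44141465: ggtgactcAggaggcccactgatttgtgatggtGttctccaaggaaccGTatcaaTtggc
Klk1, chr7:44229414-44229473: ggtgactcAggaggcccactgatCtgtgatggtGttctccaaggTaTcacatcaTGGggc
Klk1b3, chr7:44202150-44202209: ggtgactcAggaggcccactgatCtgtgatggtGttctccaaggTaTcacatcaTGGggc
Klk1b27, chr7:44056511-44056570: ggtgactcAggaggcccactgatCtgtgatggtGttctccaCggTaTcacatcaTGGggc
Klk1b24, chr7:44192251-44192310: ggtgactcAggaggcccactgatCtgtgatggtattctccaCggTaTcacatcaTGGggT
Klk1b22, chr7:44116721-44116780: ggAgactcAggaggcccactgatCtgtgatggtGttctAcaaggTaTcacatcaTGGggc

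Klk1 and Klk1b3 have the same letters in this stretch, whereas Klk1 differs from Klk1b26 at 8 of its bases and Klk1b16, which is not a listed member, differs from Klk1b26 at 5. Over a full read of 150 bases, no window of any member's transcript had an exact copy in another gene. Windows within 2 mismatches of another family gene made up 17.27% of Klk1 and 11.19% of Klk1b5, and at most 2.11% of the other members. Within 5 mismatches the shares were 32.17% for Klk1, 24.35% for Klk1b4 and 22.22% for Klk1b5. How far this affected the counts was not tested.

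**Figure D1:**
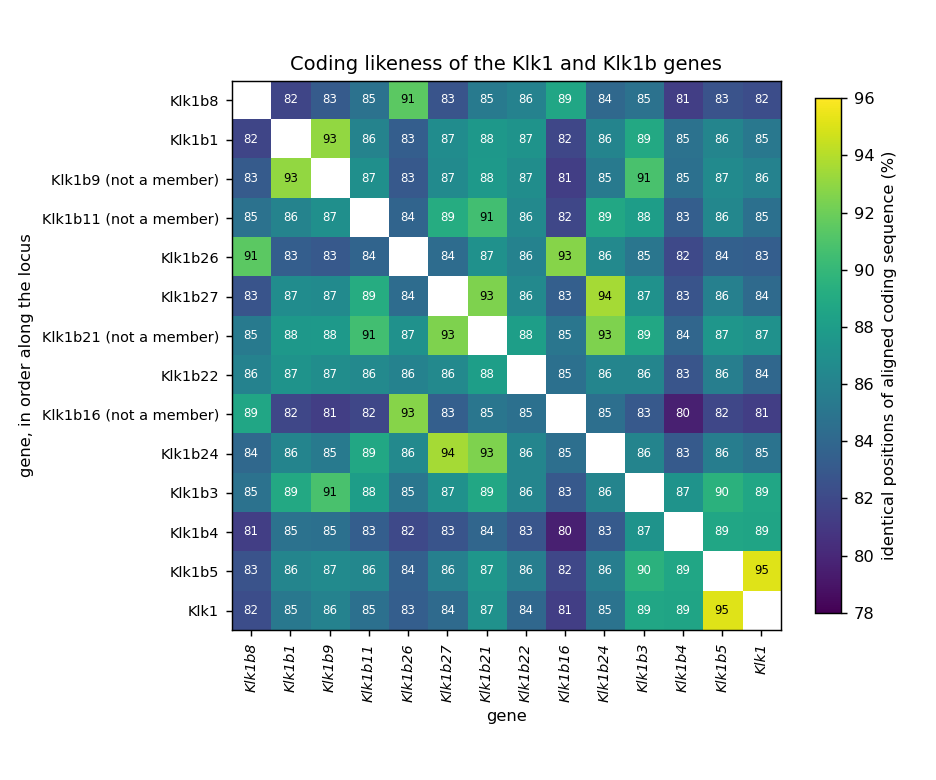
Each square gives the percent of identical positions in the aligned coding sequences of a pair among 14 Klk1 and Klk1b genes (GENCODE M21), listed in their order along the locus. Klk1 and Klk1b5 form the brightest square at 95.15%, and no member pair is below 81.35%.

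The windows just before the transcription start share a short element, shown here because most members carry it. It is TTTAAA, its own reverse complement, in capitals within 30 bases on the plus strand of GRCm38.p6 (RefSeq).
Klk1b26, chr7:44012640-44012669: agaatgagggtaTTTAAAatctcctgagga
Klk1b8, chr7:43950610-43950639: agaatgagggttTTTAAAgtcaccccaagg
Klk1b22, chr7:44112621-44112650: agaatgagggttTTTAAAgtctccctgagg
Klk1b24, chr7:44188193-44188222: gagaatgagggtTTTAAAgtctcctgagga
Klk1b5, chr7:44216420-44216449: agaatgagggttTTTAAAgtctccctgagg
Klk1b16, chr7:44137239-44137268: agaactcaggtaTTTAAAatctcctgagga

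In these 6 genes the element starts 26 to 44 bases before the annotated start. Searched on both strands of the 250 bases before the start, TTTAAA was found in 9 of 10 member promoters, all but that of Klk1, and in 3 of the 4 other Klk1b promoters, against 12.1% of 32851 mouse promoters. The letters TATAAA were in 0 of 10 member promoters against 12.4% of all, and AGAACA, the core of a glucocorticoid or androgen receptor half-site, was in 2 of 10 (Klk1b24 and Klk1b3) against 16.1%. The letters ATGNATA (as bound by POU factors), TAATCC (PITX) and ATCAAAG (LEF and TCF) were in 0 of 10, against 7.9%, 6.3% and 3.2% of all promoters. A string without a match says only that these letters are not in this window.

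The libraries held 15740857 to 27280761 counts each, and levels are given as CPM, counts after TMM scaling to a common library total. Where a library has no count of a member, the limit that a count of 0 allows is 3 counts, or 0.113 to 0.198 CPM by library, for counting error only. The wildtype libraries held 545 to 834 CPM of 7 stem cell markers, among them Sox2 at 21.9 to 48.7 CPM. They also held 25683 to 65723 CPM of Gh, the growth hormone gene of somatotrophs, and 9798 to 27558 CPM of Pomc. In the mutant libraries the stem cell list stood at 184 to 305 CPM, Gh at 1.32 to 4.25 CPM and a list of 5 endothelial markers at 2828 to 4173 CPM, against 6.63 to 53.9 CPM in wildtype. The stem cell list did not move as 1. Of its 7 markers, 3 were lower in the mutants and 1 was higher at an edgeR adjusted p under 0.05. Over all genes tested, 28.5% were lower and 30.7% higher. Wildtype libraries 2 and 4 held both Y-linked Ddx3y (38.2 and 46.7 CPM) and Xist (122 and 143 CPM). In the other wildtype libraries Ddx3y was at most 1.0 CPM and Xist at least 267.8 CPM.

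Klk1, the kinin-releasing enzyme, was detected in all wildtype libraries, at 24.1, 11.3, 26.3, 16.8, 19.2 and 19.2 CPM in wildtype 1 to 6. Klk1b26, known as a prorenin-converting enzyme of the submandibular gland, stood at 17.2, 32.8, 29.1, 22.1, 15.6 and 14.8 CPM in the same libraries. Wildtype 2 was lowest for Klk1 and highest for Klk1b26, so the 2 most abundant members did not follow the same order over libraries. In the 5 mutant libraries Klk1 had 3 counts in all, each of them in mutant 5 (0.114 CPM), and Klk1b26 had none.

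Klk1b27, whose transcript is known from Leydig cells of the mouse testis, stood at 5.35, 5.93, 5.07, 4.07, 2.95 and 3.93 CPM in wildtype 1 to 6. Klk1b24, also known from Leydig cells, stood at 1.5, 2.72, 1.38, 2.16, 0.982 and 2.11 CPM. Klk1b22, described as an endopeptidase of beta nerve growth factor and as an epidermal growth factor binding protein, stood at 2.25, 2.57, 1.71, 2.16, 1.09 and 1.38 CPM. For all 3, wildtype 2 was the highest library and wildtype 5 the lowest. In the mutants, Klk1b27 had no count, Klk1b24 had 5 (3 in mutant 1 and 2 in mutant 6) and Klk1b22 had 1, in mutant 2.

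Klk1b8, a member without a settled substrate, varied more, at 1.40, 3.67, 2.57, 0.539, 0.465 and 1.67 CPM in wildtype 1 to 6. Klk1b3, the gamma subunit of the nerve growth factor complex and an active protease, ranged from 0.50 to 1.06 CPM. The remaining members had at most 25 counts in a library. Klk1b1 ranged from 0 to 0.945 CPM, Klk1b4, the alpha subunit of that complex, from 0 to 0.416 CPM, and Klk1b5 from 0 to 0.659 CPM. These 3 each lacked counts in at least 1 wildtype library, and none of the 5 genes Klk1b8, Klk1b3, Klk1b1, Klk1b4 and Klk1b5 had a count in any mutant library.

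**Figure D2:**
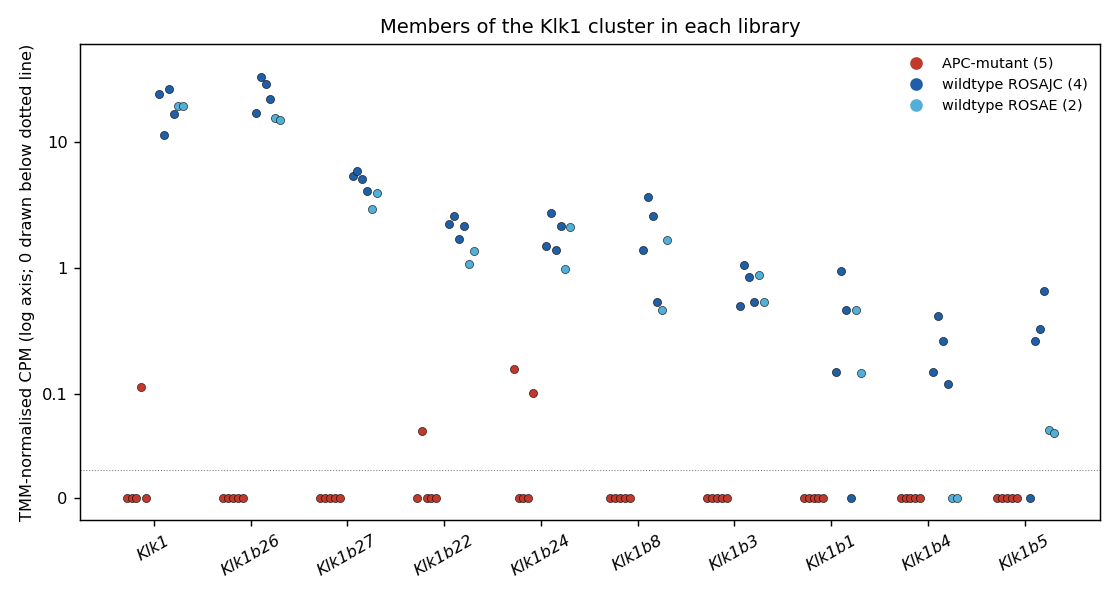
TMM-normalised CPM of each member in every library on a log axis, with libraries without a count drawn at 0 below the dotted line; red points are the 5 mutant libraries and dark and light blue points the ROSAJC and ROSAE wildtype libraries. The highest mutant point is 0.159 CPM (Klk1b24 in mutant 1), and the lowest wildtype point of Klk1 is 11.3 CPM.

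Counts of members in the mutant libraries came to 9 in total, against 6234 in the wildtype libraries. Summed over members, the level was 52.5, 61.7, 68.0, 49.2, 41.6 and 43.8 CPM in wildtype 1 to 6, a mean of 52.8 ± 10.3 (SD, n = 6). It was 0.0851 ± 0.0613 CPM (SD, n = 5) in the mutants, with no count at all in mutant 4. The ratio of normalised totals, wildtype over mutant, was 602, with a 95% counting interval of 317 to 1318.

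Taken singly, Klk1 was 644-fold higher in wildtype (counting interval 220.0 to 3124) and Klk1b24 38.4-fold (16.2 to 120). For Klk1b22, which had 1 mutant count, the ratio was 195 with an interval of 34.6 to 7728. The values for Klk1 and Klk1b22 each rest on 1 mutant library. The fitted log2 change went from -9.12 to -11.56 for Klk1 without mutant 5, with no mutant count left. For Klk1b22 it went from -6.87 to -8.23 without mutant 2, again with no mutant count left. The mutant counts of Klk1b24 came from mutants 1 and 6, and its fitted change went from -5.03 to -5.91 without mutant 1. Klk1b26 was at least 761-fold higher in wildtype, Klk1b27 at least 158-fold, Klk1b8 at least 62.6-fold and Klk1b3 at least 25.5-fold. For the members with fewest counts the bounds were 13.6-fold (Klk1b1), 7.25-fold (Klk1b5) and 5.80-fold (Klk1b4), all against 3 counts over the mutant group. These bounds follow the wildtype count of each gene and give no order of effect.

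Klk1b1, Klk1b4 and Klk1b5 did not pass the filter on low counts and were not tested. The other 7 members passed it only through their wildtype counts, so a test of them, or a lack of overlap between genotypes, would follow from how they were chosen, and no test is given. Of all 20622 genes tested between genotypes, 30.7% were higher and 28.5% lower in the mutants at an adjusted p of 0.05 (edgeR's quasi-likelihood test with Benjamini-Hochberg adjustment), or 59.2% in all. All mutant libraries lay below all wildtype libraries in 20.0% of genes, and in these 7 members by their choice. A count in every wildtype library and none in any mutant library was seen for 144 of 21862 rows with counts in all wildtype libraries, or 0.659%, and among members for Klk1b26, Klk1b27, Klk1b8 and Klk1b3. This too restates the choice of members. Separate animals are not stated in the labels, and p-values therefore speak to the spread among libraries, which may be technical. In such bulk samples fewer cells of a type and less RNA per cell cannot be told apart.

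Every endocrine cell type list examined moved the same way as the members between genotypes, and the part of these lists in the levels was not tested. The 2 somatotroph markers summed to 25847 to 65999 CPM in wildtype and 1.32 to 4.47 CPM in the mutants. The lactotroph marker Prl, the prolactin gene, stood at 118 to 571 CPM against at most 0.159 CPM. The 3 melanotroph markers summed to 254 to 453 CPM against 1.28 to 3.64 CPM. The 2 corticotroph markers summed to 69.8 to 198 CPM against 0.159 to 1.32 CPM. The 4 gonadotroph markers summed to 45.5 to 118 CPM against 1.05 to 2.83 CPM. The 3 thyrotroph markers summed to 458 to 1483 CPM against 6.64 to 38.7 CPM. A list of 11 salivary gland genes summed to 4.35 to 8.74 CPM in wildtype, where 8 of its genes, among them Smr2, Smr3a and Dcpp1, were at 0, and most of the remainder was Amy1 at 5.48 ± 1.78 CPM (SD, n = 6). In the mutants that list summed to 4.22 to 5.31 CPM. Of the exonic bases of Amy1, 32.7% overlap the gene Rnpc3, and pairs that overlap both were counted for each. The Amy1 level may thus include Rnpc3 fragments. The 4 kidney tubule markers summed to at most 0.899 CPM in any library.

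Set per kilobase of exon, so that genes can be ranked, the wildtype order was Klk1 at 18.1 ± 4.93 CPM per kb, Klk1b26 at 15.8 ± 5.44 and Klk1b27 at 5.12 ± 1.23 (SD, n = 6). Klk1 and Klk1b26 differed by 2.25 ± 8.34 CPM per kb, with Klk1 above in 4 of 6 libraries, so this order was within their spread. Klk1b26 was above Klk1b27 in 6 of 6 libraries, and Klk1b27 above the next gene in 6 of 6. Klk1b22 (2.17), Klk1b24 (2.06) and Klk1b8 (2.0 CPM per kb) could not be separated, with differences of 0.113 ± 0.571 and 0.0605 ± 1.20. Klk1b8 was above Klk1b3 in 5 of 6 libraries.

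The low end of the order was Klk1b3 at 0.820, Klk1b1 at 0.417, Klk1b4 at 0.188 and Klk1b5 at 0.162 CPM per kb. Klk1b3 was above Klk1b1 in 6 of 6 libraries, and Klk1b4 above Klk1b5 in 3 of 6. By CPM without the length, Klk1b26 came ahead of Klk1 (21.9 against 19.5 CPM) and Klk1b5 ahead of Klk1b4, since the counted exons of Klk1b26 and Klk1b5 are longer, at 1386 and 1391 bases against 1077 and 839.

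**Figure D3:**
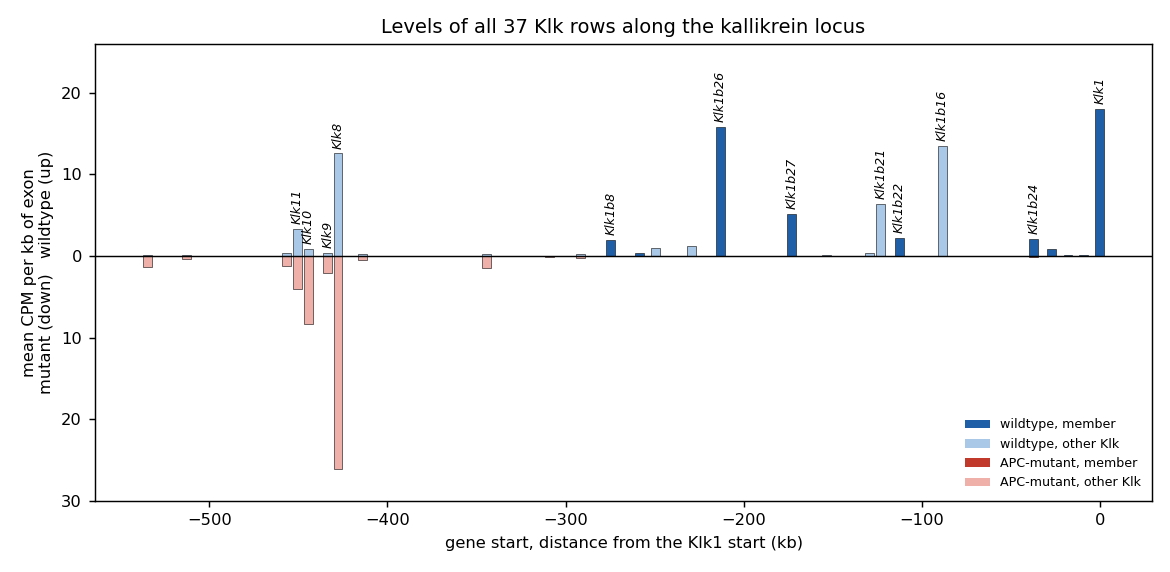
Mean level of all 37 Klk rows in CPM per kb of exon, placed by the distance of the gene start from the Klk1 start in kb, with wildtype bars upward and mutant bars downward, and members in the dark colours. Klk1 (18.1) and Klk1b26 (15.8) are the tallest members and stand at opposite parts of the cluster, while no member bar can be seen below the axis.

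The balance between Klk1 and the Klk1b members differed among wildtype libraries. Klk1 made up 46.9%, 19.4%, 40.9%, 36.4%, 48.3% and 44.8% of the members' summed CPM per kb in wildtype 1 to 6. The log2 ratio of Klk1b26 to Klk1 in CPM was 1.54 in wildtype 2 and between -0.49 and 0.39 in the other libraries. Wildtype 2 and 4, with the lowest shares of Klk1, are the libraries that held both Y-linked and Xist transcripts, and wildtype 2 also had the lowest summed somatotroph level, 25847 CPM. A list of 5 posterior lobe markers summed to 263, 4.87, 5.14, 11.7, 328 and 53.9 CPM in wildtype 1 to 6, and was highest in the 3 libraries with the largest share of Klk1. The part of these in the balance was not tested.

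**Figure D4:**
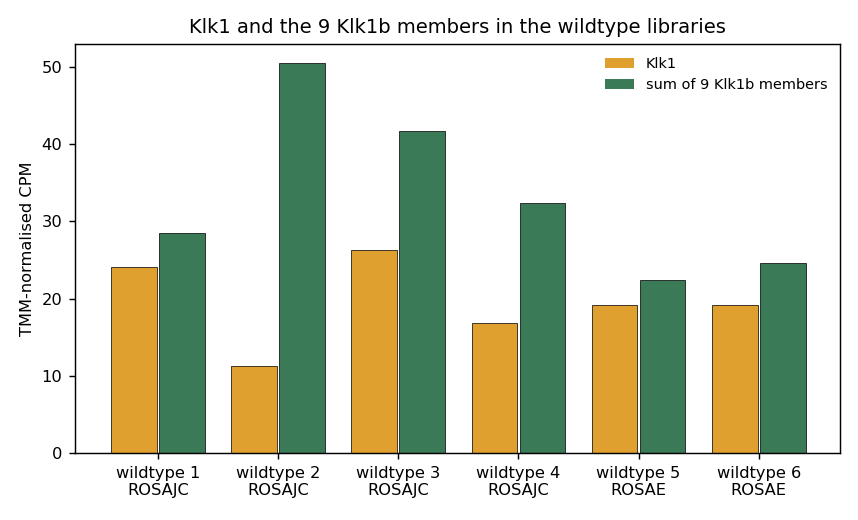
Level of Klk1 and the summed level of the 9 Klk1b members, in TMM-normalised CPM, in each of the 6 wildtype libraries. Wildtype 2 has the lowest Klk1 bar, 11.3 CPM, beside the highest Klk1b bar, 50.4 CPM.

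Within wildtype, ROSAE libraries were compared with ROSAJC libraries, a contrast that the choice of members did not use and whose meaning the labels do not give. No member was called in this fit, in which 1 of 21018 genes, or 0.00476%, passed. The fitted log2 differences of the 7 members tested were all negative, with a median of -0.56 against 0.01 over all genes. Those of Klk1 (-0.02 ± 0.32, SE), Klk1b3 (-0.06 ± 0.64) and Klk1b24 (-0.32 ± 0.51) lay within 1 SE of 0. All 7 were read from the same libraries, so their signs are not separate observations. Klk1b26 stood at 15.2 CPM on average in the 2 ROSAE libraries (14.8 and 15.6) and at 25.3 ± 7.02 CPM (SD, n = 4) in ROSAJC. Its log2 difference was -0.73 ± 0.29 (SE), with an edgeR p of 0.0313 that became 0.814 after Benjamini-Hochberg adjustment over all genes. It was the only member at an unadjusted p under 0.05, as were 6.04% of all genes, or 1270.

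Klk1 stood at 19.2 CPM in both ROSAE libraries and at 19.6 ± 6.85 CPM (SD, n = 4) in ROSAJC, a log2 difference of -0.02 ± 0.32 (SE). Klk1b27 was at 3.44 CPM in ROSAE and 5.11 ± 0.777 CPM in ROSAJC, with a log2 difference of -0.56 ± 0.33 (edgeR adjusted p = 0.857). Klk1b22 was at 1.23 against 2.17 ± 0.354 CPM, with -0.81 ± 0.43 (edgeR adjusted p = 0.838). With 2 ROSAE libraries these intervals are wide, and a difference of the size seen for Klk1b26 was not called. The signs for Klk1, Klk1b3 and Klk1b24 turned under other settings, with values up to 0.11, 0.25 and 0.24.

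Likeness to the members was described over the 6 wildtype libraries as the Pearson correlation of log2(CPM + 0.5), among 11783 genes of at least 5 CPM. For the summed members, genes among the nearest were Jmjd4 (0.995), Scg5 (0.990), Slc25a5 (0.989), Mir1892 (0.981), Gnb5 (0.981), Ucn3 (0.980) and Tmem116 (0.976). Scg5 is the chaperone of prohormone convertase 2, and its level was 326, 406, 451, 315, 279 and 282 CPM in wildtype 1 to 6. Ucn3, the urocortin 3 gene, stood at 11.5, 15.5, 20.6, 9.22, 4.65 and 7.32 CPM. Both were highest in wildtype 3 and lowest in wildtype 5, as was the summed level of the members.

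For Klk1b26 alone the nearest genes were Hdgf (0.988), Fabp5 (0.988), Nkiras2 (0.986), Dera (0.985), Cisd3 (0.984), Tlcd2 (0.980), Kif3a (0.980) and Cldn9 (0.979). Fabp5, a fatty acid binding protein gene, stood at 95.6, 149, 154, 115, 88.7 and 87.9 CPM in wildtype 1 to 6, and the claudin gene Cldn9 at 211, 353, 337, 255, 178 and 203 CPM. Both were low in wildtype 1, 5 and 6, where Klk1b26 was also low. Over so few libraries such values say little. Of the 11783 genes, 29 and 20 had a correlation above 0.95 with the summed members and with Klk1b26.

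Of the 4 Klk1b genes in the same stretch that are not listed members, Klk1b16, known as gamma-renin, had the most counts. It stood at 18.7 ± 6.0 CPM (SD, n = 6) in wildtype and had 1 count over the mutants, in mutant 6. Its log2 change was -10.19 ± 0.51 (SE; edgeR adjusted p = 1.2e-09), and -11.55 without mutant 6, where no mutant count was left and the fitted value depends on the prior count. Klk1b21, also known from Leydig cells, stood at 5.55 ± 1.48 CPM in wildtype and had no mutant count, so it was at least 188-fold higher in wildtype (edgeR adjusted p = 2.0e-07). Klk1b9, which binds epidermal growth factor, was at 0.834 ± 0.658 CPM in wildtype, where library 4 had no count, and was at least 31.3-fold higher than in the mutants (edgeR adjusted p = 0.00138). Klk1b11 had 121 wildtype counts and no mutant count, and was not tested. Because these copies are so alike in sequence, fragments may have been exchanged among them. Like the tested members, Klk1b16, Klk1b21 and Klk1b9 passed the filter on low counts only through their wildtype counts. Their p-values are therefore no separate support for the levels of the members.

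Among the kallikreins outside that stretch, Klk4 to Klk15, most of those tested were higher in the mutants. Of 12 rows, 7 were tested, 6 were higher in the mutants and none was lower, with a median log2 change of 2.28 against 0.02 over all genes, where 30.7% of genes were higher. Klk14, Klk9 and Klk4 passed the filter on low counts only through their mutant counts, and Klk12 did not pass through wildtype alone. Their calls, and the share of genes higher, therefore follow in part from the filter. Klk8, or neuropsin, a protease of brain and skin, was at 28.5 to 52.9 CPM in the mutants and 16.5 to 23.0 CPM in wildtype, without overlap. Its log2 change was 1.05 ± 0.17 (SE; edgeR adjusted p = 1.2e-04). Klk10 rose from 1.22 ± 0.674 to 11.4 ± 6.03 CPM, by 3.21 ± 0.45 on the log2 scale (edgeR adjusted p = 2.7e-05). Klk4, a protease of enamel matrix, rose by 2.28 ± 0.47 (edgeR adjusted p = 8.5e-04).

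Klk14, a trypsin-like kallikrein of the epidermis, rose by 3.74 ± 0.50 on the log2 scale (edgeR adjusted p = 1.8e-05). Klk9 rose by 2.50 ± 0.70 (edgeR adjusted p = 0.00715), with 9.32 CPM in mutant 4 and 0.685 CPM in the lowest mutant, and by 1.45 without mutant 4 (edgeR adjusted p = 0.0494). Klk12 rose by 1.86 ± 0.61 (edgeR adjusted p = 0.0167), a call that was lost without mutant 4 (1.58) and against either wildtype prefix alone (1.57 and 2.54). Klk9 also lost its call against ROSAE alone (3.20). Klk11 stood at 5.95 ± 2.14 CPM in the mutants and 4.81 ± 1.74 CPM in wildtype, a log2 difference of 0.31 ± 0.30 that was not called (edgeR adjusted p = 0.405). Counting used no strand, and 22.6% of the exonic bases of Klk14, 61.2% of Klk9 and 24.8% of Klk8 overlap the antisense gene 2310002F09Rik, so their fragments cannot be told apart from its own.

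**Figure D5:**
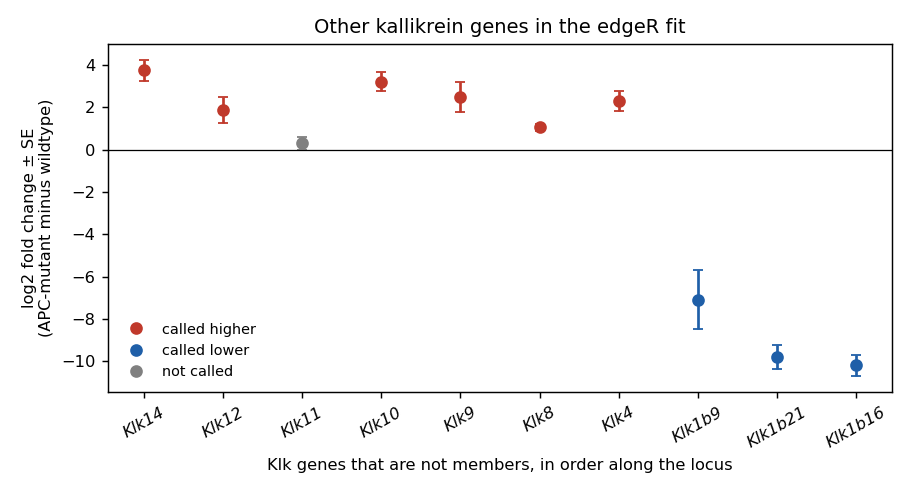
Log2 fold change (mutant minus wildtype) with its SE for the 10 tested Klk genes that are not members, in their order along the locus. The 3 Klk1b genes lie between -10.19 and -7.10, of which Klk1b9 and Klk1b21 had no mutant count and so no fitted measure of size, whereas the genes from Klk14 to Klk4 lie between 0.31 and 3.74.

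The kinin system, which Klk1 feeds, was read from a list of 17 genes, of which 10 were tested, 5 higher and 2 lower in the mutants, against 30.7% of all genes higher and 28.5% lower, with a median log2 change of 0.77 against 0.02. Prcp, a carboxypeptidase that can act on kinins and prekallikrein, rose from 10.8 ± 2.46 to 169 ± 22.6 CPM, by 3.96 ± 0.17 on the log2 scale (edgeR adjusted p = 3.2e-10). Ace, the main bradykinin-degrading enzyme and a marker of endothelium, rose from 0.699 ± 0.308 to 31.7 ± 8.15 CPM, by 5.51 ± 0.30 (edgeR adjusted p = 2.6e-09). Serping1, the C1 inhibitor, rose by 3.18 ± 0.34 and Xpnpep1, aminopeptidase P, by 0.92 ± 0.10 (edgeR adjusted p = 2.2e-06 and 3.3e-06). The kininogen genes Kng1 and Kng2 were at 0.0300 and 0.362 CPM in wildtype and were not tested. The B2 receptor gene Bdkrb2 stood at 48.0 ± 25.8 CPM in wildtype and 28.8 ± 2.50 CPM in the mutants, with overlapping groups. It was called lower (-0.74 ± 0.30 on the log2 scale, edgeR adjusted p = 0.0489), but not in 8 of 11 fits with a library left out, those without mutant 1, 2, 4, 5 or 6 or wildtype 3, 4 or 6, where the values lay between -0.76 and -0.46. F12, the coagulation factor that starts the plasma kallikrein path, had 6 mutant counts and stood at 1.69 ± 0.697 CPM in wildtype. It fell by 4.69 ± 0.66 on the log2 scale (edgeR adjusted p = 2.7e-05), with a value of -5.33 without mutant 1. Ace passed the filter on low counts only through its mutant counts, and F12 only through its wildtype counts. Their p-values therefore follow in part from the filter. The 5 endothelial markers were all higher in the mutant libraries too. So were the lists of 6 mesenchymal markers (608 to 2094 against 88.1 to 179 CPM), 5 macrophage markers (90.6 to 888 against 15.0 to 42.5 CPM) and 5 erythroid markers (2067 to 3968 against 1.21 to 35.2 CPM). Their part in these results was not tested.

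Among 10 substrates and partners of the family, 9 were tested, 6 higher and 3 lower, against the same 30.7% and 28.5% of all genes, with a median log2 change of 1.60. The share lower is thus near that of all genes. Prl had 3 mutant counts, all in mutant 1, and fell by 13.09 ± 0.75 on the log2 scale (edgeR adjusted p = 4.5e-09), and the value was -15.60 without mutant 1, with no mutant count left. Prl passed the filter on low counts only through its wildtype counts, so its p-value follows in part from the filter. Egf, the growth factor gene, fell from 7.19 ± 1.77 to 1.16 ± 0.262 CPM, by 2.64 ± 0.25 (edgeR adjusted p = 6.9e-07). Agt, angiotensinogen, rose by 4.82 ± 0.55 (edgeR adjusted p = 3.7e-06) and by 4.18 against ROSAE alone. Atp6ap2, the prorenin receptor gene, fell by 0.95 ± 0.14 (edgeR adjusted p = 4.7e-05).

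Of 11 protease inhibitors, 6 were tested, 2 higher and 2 lower, shares near the 30.7% and 28.5% of all genes. Spink5, which restrains kallikreins of the skin, had no count in any wildtype library and stood at 3.76 to 16.5 CPM in the mutants (edgeR adjusted p = 3.3e-06). Spink5 passed the filter on low counts only through its mutant counts, so its p-value follows in part from the filter. Serpine2, a secreted inhibitor of trypsin-like proteases, rose by 1.38 ± 0.21 on the log2 scale (edgeR adjusted p = 5.3e-05). The Kunitz-type inhibitors Spint2 and Spint1 fell by 1.41 ± 0.14 and 0.58 ± 0.13 (edgeR adjusted p = 8.8e-07 and 0.00119).

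Around the cluster, 85 other genes lie within 500 kb of the outermost members. Of these 35 were tested, 7 were higher and 20 lower in the mutants, with a median log2 change of -0.62, against 28.5% of all genes lower. Among the neighbours with the smallest p were Syt3, a synaptotagmin (-2.79 ± 0.19, edgeR adjusted p = 2.2e-08), and the synaptic scaffold gene Shank1 (-2.98 ± 0.26, edgeR adjusted p = 2.3e-07). Within the stretch of the members, 16 genes that are not kallikreins are annotated, and 2 were tested. They are Gm10109 and an unnamed gene that overlap each other, and both fell, Gm10109 by 3.36 ± 0.49 on the log2 scale (edgeR adjusted p = 4.2e-05). Both passed the filter on low counts only through their wildtype counts.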

How the data were processed

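Poly(A) RNA from sorted mouse pituitary cells was amplified with a SMARTer kit and sequenced as read pairs of 150 bases, per the labels' protocols. The deposited values are raw counts of read pairs per gene; per the file headers they were made with featureCounts 2.0.1 over GENCODE M33 on GRCm39, without a strand option, with pairs that overlap several genes counted for each, and without pairs mapped to several places. The deposited table also gives each gene's exonic length in bases, used for CPM per kb. Trim Galore 0.6.5, STAR 2.7.9a and DESeq2 appear in the submitters' processing notes, with no settings in the sources used here. Symbols were matched for 91.2% of identifiers, which carry 98.61% of counts.

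Counts were fitted with edgeR 4.0.16 in R 4.3.3 (filterByExpr, TMM, quasi-likelihood F test, Benjamini-Hochberg adjustment over all genes tested, call at 0.05), in a fit of both genotypes and a fit of wildtype libraries by name prefix. The scripts were tested on simulated data. SE is the absolute log2 change over the square root of F. Ratios of few counts have 95% counting intervals, and bounds use 3 counts over the group and cover counting error only, as amplified fragments carry no molecular identifiers. Sequences came from GENCODE M21 (GRCm38) and RefSeq (GRCm38.p6), whose coordinates are not those of GRCm39. Alignment used Biopython 1.88, and for 9 of 10 members the transcript was as long as the deposited exonic length. The exception was Klk1, with a transcript of 954 bases against 1077 exonic bases. Its window shares therefore do not cover all of its counted bases. Libraries of a genotype differed by more than sampling noise in every pair.

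Genes named are all members, all other tested Klk genes, the 4 smallest p of each list or of the neighbours, and the 8 most alike; cell type markers may be named with their levels. Some genes that this rule names are not reported here. Bdkrb2, F12, Kng1, Kng2 and Klk1b11, and Gm10109 as 1 of only 2 genes tested within the stretch, were added after their values were seen. The members and lists were chosen with earlier results of these data known. Alternatives were DESeq2 1.42.0, other scalings, no filter, a Y-linked covariate, leaving out libraries, wildtype prefixes alone and the replicate number as a block.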

Additional observations from a re-analysis of the deposited data

Results flagged for a closer look

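Of 64 groups of single-gene values examined for a library far from the rest of its group, 4 stood out, where chance flags about 1 in 20. None was a member of the cluster. Klk11 stood at 8.27 CPM in wildtype 5, above every other wildtype library. Klk9 stood at 9.32 CPM in mutant 4, above every other mutant library. Serping1 stood at 22.3 CPM in mutant 5, below every other mutant library. Mutant 5 also had the lowest summed level of the 6 mesenchymal markers, 608 CPM. Agt stood at 2.27 CPM in wildtype 5, above every other wildtype library.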

How the results depend on the processing

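The summed wildtype level of the members, 52.8 CPM, was 53.3 with RLE size factors, 53.8 with total-count scaling, 57.8 in ROSAJC and 42.7 in ROSAE libraries, and 49.8 to 55.0 with a library left out. Genes called between genotypes numbered 12218, and 10577 to 13867 under the alternatives. In the ROSAE against ROSAJC fit, 1 gene was called, 26 without a filter, 30 with DESeq2, 0 with a Y-linked covariate and 0 to 3 with a library left out; members called were 0 in each. Its log2 differences turned sign with the Y-linked covariate for Klk1b24 (0.24) and Klk1b3 (0.0011), and with total-count scaling for Klk1 (0.028). They also turned for Klk1b24 without wildtype 5 (0.11), Klk1b3 without wildtype 2 or 6 (0.15 and 0.25) and Klk1 without wildtype 1 or 3 (0.11 and 0.11). Klk11 turned to -0.028 against ROSAE alone. With a library left out, Klk1 ranged from -0.24 to 0.11, Klk1b24 from -0.98 to 0.11 and Klk1b3 from -0.46 to 0.25. The cause was not tested.

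Deviations from the group mean correlated between -0.15 and 0.05 for same-numbered libraries of the genotypes, and between -0.10 and 0.26 for other pairs. Such values cannot settle whether libraries that share a replicate number were handled as pairs. With the replicate block, 10577 genes were called, 5662 higher and 4915 lower, and other Klk genes called went from 9 to 7, kinin genes from 7 to 6, substrate, partner and inhibitor genes from 13 to 12, and neighbours from 27 to 22. Of single-gene values across settings, 689 kept direction and side, 9 reversed, 9 moved by more than the replicate spread and 15 lost their call; Bdkrb2 lost it under the replicate block (-0.46), with the Y-linked covariate and against ROSAE alone too. The fitted value of Spink5, which had no wildtype count, depends on the prior count. Depth limits Klk1b1, Klk1b4 and Klk1b5, which had 0 to 25 counts per wildtype library.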

Other observations

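The 9 Klk pseudogene rows within the stretch of the members were without counts in the mutants, and 5 of them had counts in wildtype. Klk1b15-ps had 32 wildtype counts and Klk1b14-ps had 9. Klkb1, plasma kallikrein, stood at 0 to 0.50 CPM in wildtype. A list of 7 pancreatic acinar markers summed to 0.688 to 1.62 CPM in wildtype, where 3 of its genes were at 0, and to 2.66 to 5.03 CPM in the mutants. Of the exonic bases of Cela2a, 1 of these markers, 17.7% overlap Casp9 and an unnamed gene. The part of this list in the levels was not tested.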
